A study of Mus musculus with 12 samples.

Results

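The uroplakins and a small group of other genes of the bladder lining were followed in the colon and bladder of control mice (Ctrl) and of mice with an inducible deletion of *Yap1* and *Wwtr1* in smooth muscle (Y/T KO). The 9 genes were taken by name from the gene tables, which list 54532 genes, and they are the uroplakins *Upk1a*, *Upk1b*, *Upk2*, *Upk3a*, and *Upk3b*, the Hedgehog ligand *Shh*, the surface antigen *Psca*, the cornified envelope gene *Sprr1a*, and the sorting nexin *Snx31*. Each name matched 1 protein-coding gene, and none of the 9 was missing.

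The bladder is lined by the urothelium, a stratified epithelium whose superficial umbrella cells carry rigid membrane plaques on the side that faces urine. The plaques are built from uroplakins. The tetraspanins UPK1A and UPK1B pair with UPK2 and UPK3A, respectively, before the pairs can leave the endoplasmic reticulum, and UPK3B can take the place of UPK3A as a partner of UPK1B. SNX31 binds uroplakins on endosomes, SHH is secreted by the basal urothelium and signals to the stroma beneath it, PSCA is a GPI-anchored protein of the Ly6 family, and SPRR1A is cross-linked into the envelope of squamous cells. The *Upk1b* and *Upk3b* transcripts are also known from mesothelium, the cell layer on the outer surface of abdominal organs.

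All mice were males of 5 to 7 weeks with floxed *Yap1* and *Wwtr1*, the genes of YAP and TAZ, and all received tamoxifen (1 mg per day, 5 injections). Y/T KO mice carried Myh11-CreERT2, a recombinase driven by the smooth muscle myosin heavy chain promoter, so that epithelium and mesothelium were not its target, and Ctrl mice were Cre-negative. Distal colon and urinary bladder were frozen on day 7 after the first injection. There were 3 libraries of each organ and genotype, 12 in all, from 5 Ctrl and 4 Y/T KO mice, of which mice 788 (Ctrl), 783, and 780 (both Y/T KO) gave both organs. Libraries are named here by genotype, organ, and mouse number.

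Aligned sequence ran from 2.80 to 3.94 gigabases per library, read from the ratio of coverage to FPKM. *Yap1* stood at 98.6 to 110 TPM in Ctrl bladder and 69.4 to 72.1 TPM in the bladders labelled Y/T KO (log2 difference -0.54, SE 0.08, limma adjusted p = 0.0625). In the colon it stood at 45.8 to 54.9 TPM in Ctrl and 41.3 to 47.0 TPM in Y/T KO (-0.17, SE 0.14, adjusted p = 0.697). *Wwtr1* was not lower in Y/T KO in either organ (log2 differences 0.24, SE 0.24, adjusted p = 0.678 in bladder and 0.18, SE 0.16, adjusted p = 0.730 in colon). In these whole-tissue RNA values, genotypes therefore rest on the labels. For this mouse model the paper reports reduced YAP and TAZ protein in Y/T KO colon. Unless stated otherwise, its experiments were done later after the first injection than day 7, when the tissue of these libraries was frozen. Colon markers as a list were present in every colon (14 genes, 22610 to 36880 summed TPM, against 72.1 to 97.3 in the bladders), but the mucin gene *Muc2* was listed at no more than 0.92 TPM in any colon and the mitochondrial gene *mt-Co2* at 0 in 2 of them, so that a gene listed at 0 may be a failed estimate. Prostate transcripts were present in 3 bladders: *Pbsn*, which encodes the prostate secretory protein probasin, stood at 967 TPM in Ctrl bladder 784 and reached 33.9 and 311 TPM in Y/T KO bladders 783 and 780, against 0.73 TPM or less in the others. The comparisons of the 9 genes are therefore also given without these 3 libraries, whereas the bladder values of other genes and lists include them.

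Promoter sequence was available for 4 of the 9 genes, and it is shown because these genes were high in the same organ. The stretches lie directly upstream of the annotated genes on GRCm38.p6 (RefSeq) and are written 5′ to 3′ on the strand of the gene. They are chr7:30612848-30612984 (minus strand) for *Upk1a*, chr15:85016891-85017140 (plus strand) for *Upk3a*, chr5:136038246-136038495 (plus strand) for *Upk3b*, and chr3:92485896-92486131 (minus strand) for *Sprr1a*. Capitals mark every match, on either strand, to 8 motifs. GATA factors, which include the urothelial factor GATA3, were represented by AGATAA, and forkhead factors, which include the urothelial factor FOXA1, by TGTTTAC. Grainyhead factors of surface epithelia were represented by AACCNGGTT. The GC box of SP factors was represented by GGGCGG, and the box that takes its name from its letters by CACCC. The AP-1 factors of the JUN and FOS families were represented by TGANTCA, and the TEAD factors, through which YAP and TAZ act, by GGAATG. The core promoter element known as the TATA box was represented by TATAAA. The sequences follow.
Upk1a: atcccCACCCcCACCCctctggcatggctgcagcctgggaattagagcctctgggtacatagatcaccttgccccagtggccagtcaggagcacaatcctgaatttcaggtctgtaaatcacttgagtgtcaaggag
Upk3a: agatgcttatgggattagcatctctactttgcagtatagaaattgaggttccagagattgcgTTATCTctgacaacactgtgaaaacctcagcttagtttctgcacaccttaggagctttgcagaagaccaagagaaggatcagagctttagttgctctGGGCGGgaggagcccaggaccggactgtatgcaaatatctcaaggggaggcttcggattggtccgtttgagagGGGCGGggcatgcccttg
Upk3b: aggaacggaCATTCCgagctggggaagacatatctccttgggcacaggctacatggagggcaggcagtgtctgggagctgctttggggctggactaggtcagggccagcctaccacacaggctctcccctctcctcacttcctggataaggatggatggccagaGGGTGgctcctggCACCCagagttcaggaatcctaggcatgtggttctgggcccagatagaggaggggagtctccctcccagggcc
Sprr1a: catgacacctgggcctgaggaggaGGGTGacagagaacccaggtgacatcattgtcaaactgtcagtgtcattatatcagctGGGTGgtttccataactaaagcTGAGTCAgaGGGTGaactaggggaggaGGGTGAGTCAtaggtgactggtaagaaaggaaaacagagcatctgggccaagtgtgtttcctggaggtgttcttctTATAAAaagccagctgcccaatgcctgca

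No motif of this set was found in all 4 promoters, and CACCC boxes were found in 3. *Upk3a* held 1 GATA match (as TTATCT) and 2 GC boxes, *Upk1a* held 2 CACCC boxes, and *Upk3b* held 2 CACCC boxes and 1 TEAD match (as CATTCC). *Sprr1a* held 4 CACCC boxes, 2 AP-1 matches, of which 1 overlaps a CACCC box, and a TATA box that ends 23 bases from the end of the stretch next to the gene. Neither forkhead nor Grainyhead letters were found in these windows. Among 32851 RefSeq promoter windows of 250 bases, 52.0% hold a CACCC box, 32.7% a GC box, 9.99% the GATA letters, 12.6% the TEAD letters, 6.75% the AP-1 letters, 12.4% the TATA box, 3.17% the forkhead letters, and 0.24% the Grainyhead letters. The windows of *Upk1a* and *Sprr1a* were shorter, at 137 and 236 bases. A match describes the letters and does not show that a factor binds there.

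The first question was where each gene is expressed. All 5 uroplakins were abundant in bladder, and in colon the set came apart, with *Upk1a*, *Upk1b*, and *Upk3b* at several TPM and *Upk2* and *Upk3a* at or near 0. TPM is divided by transcript length, so levels of different genes can be set side by side. By mean TPM, *Sprr1a* ranked 36th and *Upk1a* 55th among all 54532 genes of Ctrl bladder, *Upk1b*, *Upk3a*, *Psca*, and *Upk2* ranked 82nd to 164th, *Snx31* 412th, *Upk3b* 805th, and *Shh* 4090th. The 9 genes made up 0.837% to 0.935% of the transcripts of a Ctrl bladder, 0.714% to 0.917% of a Y/T KO bladder, and 0.00352% to 0.00669% of a colon.

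*Upk1a* (ENSMUSG00000006313, chromosome 7 of GRCm38 from 30603092 to 30612847, minus strand), the tetraspanin partner of *Upk2*, stood at 1794, 1697, and 1635 TPM in Ctrl bladders 784, 785, and 788, against 1782, 1575, and 1376 TPM in Y/T KO bladders 782, 783, and 780. Colon values were 17.9, 13.4, and 17.1 TPM in Ctrl (mice 788, 786, and 787), against 14.4, 17.0, and 8.88 TPM in Y/T KO (animals 759, 783, and 780). Every bladder was thus far above every colon, and the genotypes overlapped in both organs. The log2 difference, bladder minus colon, was 6.47 (SE 0.22, limma adjusted p = 1.02e-09) in Ctrl and 6.64 (SE 0.22, adjusted p = 8.13e-10) in Y/T KO.

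*Upk2* (ENSMUSG00000041523, chromosome 9 from 44452715 to 44454976, minus strand) stood at 812, 799, and 778 TPM in Ctrl bladders, against 905, 642, and 654 TPM in Y/T KO bladders, in the same order of mice. In colon it was listed at 0 in 5 libraries and at 0.17 TPM in Ctrl mouse 787. The *Upk1a* to *Upk2* ratio was 2.10 to 2.21 in Ctrl bladders and 1.97 to 2.45 in Y/T KO bladders, ranges that overlap, whereas the colons had *Upk1a* without a comparable level of its partner.

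*Upk1b* (ENSMUSG00000049436, chromosome 16 from 38773184 to 38800328, minus strand), the tetraspanin that pairs with *Upk3a* or *Upk3b*, stood at 1158, 1451, and 1391 TPM in Ctrl bladders, against 1418, 1223, and 1191 TPM in Y/T KO bladders. In colon it stood at 11.8, 9.23, and 9.29 TPM in Ctrl, against 12.6, 5.42, and 8.64 TPM in Y/T KO. As for *Upk1a*, organs were apart and genotypes overlapped, with log2 differences between organs of 6.77 (SE 0.25, adjusted p = 1.58e-09) in Ctrl and 6.96 (SE 0.25, adjusted p = 1.23e-09) in Y/T KO.

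*Upk3a* (ENSMUSG00000022435, chromosome 15 from 85017141 to 85022547, plus strand) stood at 1066, 1182, and 1159 TPM in Ctrl bladders, against 1136, 939, and 837 TPM in Y/T KO bladders. Y/T KO colons all listed it at 0, and Ctrl colons listed it at 1.18, 0.070, and 0.085 TPM (mice 788, 786, and 787). The single colon above 1 TPM, that of Ctrl mouse 788, was the one that also held the highest *Upk1a* value among the colons.

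*Upk3b* (ENSMUSG00000042985, chromosome 5 from 136038496 to 136046487, plus strand), the mesothelial and urothelial relative of *Upk3a*, stood at 157, 210, and 173 TPM in Ctrl bladders, against 188, 113, and 114 TPM in Y/T KO bladders. Colon values were 8.54, 8.48, and 7.46 TPM in Ctrl, against 10.7, 5.11, and 8.57 TPM in Y/T KO colons. The difference of *Upk3b* between organs was the smallest of the 9 in each genotype, at 4.18 (SE 0.26, adjusted p = 1.45e-07) in Ctrl and 3.82 (SE 0.26, adjusted p = 2.93e-07) in Y/T KO on the log2 scale.

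The transcripts of the 2 partners of *Upk1b* stood in different proportions in the 2 organs. Pairing of the proteins was not measured. In bladder there were 0.120 to 0.178 *Upk3b* transcripts per *Upk3a* transcript, whereas Ctrl colons had 7.26 to 122. The Ctrl colon ratios rest on *Upk3a* values of 0.070 to 1.18 TPM, and Y/T KO colons listed *Upk3a* at 0. The *Upk1b* to *Upk3b* ratio lay between 1.01 and 1.38 in the 6 colons and between 6.92 and 10.8 in the 6 bladders. Markers of mesothelium were present in every library (8 of 8 genes tested in each organ, 33.7 to 86.6 summed TPM in colon and 100.1 to 430.4 in bladder). In Y/T KO colons their sum was highest in mouse 759 (86.6 TPM), then 780 (62.7), then 783 (33.7), the order of *Upk3b* and of *Upk1b* in the same colons. *Psca* and *Shh* had that order there too. In bladders the sum was 225, 430, and 253 TPM in Ctrl, against 330, 100.1, and 177 TPM in Y/T KO, and *Upk3b* had the same order as this sum within each genotype. So did *Sprr1a*, and the order was therefore not particular to *Upk3b*. In Ctrl colons the orders differed, with the sum highest in mouse 786 (61.4 TPM) and *Upk3b* highest in mouse 788. The part of mesothelium in the *Upk3b* and *Upk1b* values was not tested.

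The other members were higher in bladder as well. *Shh* (ENSMUSG00000002633, chromosome 5 from 28456815 to 28467256, minus strand) stood at 37.1, 42.8, and 48.0 TPM in Ctrl bladders, against 43.5, 39.1, and 36.6 TPM in Y/T KO bladders. In colon it was listed at 0, 0, and 0.097 TPM in Ctrl, against 0.25, 0.071, and 0.11 TPM in Y/T KO, no more than 0.25 TPM in any library. Antisense genes overlap *Shh*, and whether the authors' estimates used the strand is not given in the sources used here.

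*Snx31* (ENSMUSG00000013611, chromosome 15 from 36504062 to 36555573, minus strand) stood at 310, 340, and 320 TPM in Ctrl bladders, against 349, 346, and 313 TPM in Y/T KO bladders. In colon it was listed at 0.14, 0.031, and 0 TPM in Ctrl, against 0.35, 0, and 0 TPM in Y/T KO. Like *Upk2*, it had a colon level near 0, and the genotypes overlapped in both organs.

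*Psca* (ENSMUSG00000022598, chromosome 15 from 74714839 to 74717069, plus strand) stood at 988, 1069, and 1082 TPM in Ctrl bladders, against 917, 721, and 658 TPM in Y/T KO bladders, with no overlap. In colon it varied widely, with 2.29, 0, and 1.33 TPM in Ctrl, against 3.95, 0.18, and 0.50 TPM in Y/T KO. The log2 difference between organs was 10.30 (SE 1.22, adjusted p = 6.59e-05) in Ctrl and 9.50 (SE 1.22, adjusted p = 0.000114) in Y/T KO, values that depend on the pseudocount and on single colons. Without Ctrl colon 788 or 786 the first was 11.21 or 8.84, and without Y/T KO colon 759 or 783 the second was 10.62 or 8.65.

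*Sprr1a* (ENSMUSG00000050359, chromosome 3 from 92483952 to 92485895, minus strand) was the most abundant of the 9 in bladder, at 2043, 2554, and 2403 TPM in Ctrl, against 2425, 1834, and 1958 TPM in Y/T KO. In colon it stood at 8.72, 10.4, and 4.98 TPM in Ctrl, against 24.7, 7.36, and 39.6 TPM in Y/T KO, so that 2 of 3 Y/T KO colons exceeded every Ctrl colon and the third did not. The log2 difference between organs was 7.97 (SE 0.49, adjusted p = 3.39e-07) in Ctrl and 6.45 (SE 0.49, adjusted p = 1.71e-06) in Y/T KO, the latter being 5.75 without Y/T KO colon 783. Its transcript is 76.7% identical to that of *Sprr1b* over 519 aligned bases, but *Sprr1b* was listed at 0 in every library.

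The 5 members measured in both organs (*Upk1a*, *Upk1b*, *Upk3b*, *Psca*, and *Sprr1a*) were called higher in bladder in both genotypes at an adjusted p under 0.05, a call that 25.3% of the 19773 genes tested received in Ctrl and 25.6% in Y/T KO. These differences are on the scale of log2(TPM + 0.1), TPM being rescaled by size factors, and understate the change of genes near 0. The other 4 (*Upk2*, *Upk3a*, *Shh*, and *Snx31*) passed the filter on low values, at least 0.5 TPM in 3 libraries, only through their bladder levels, so that they had to differ and are given by their values. Leaving out the 3 bladders with prostate transcripts left 782 as the only Y/T KO bladder. The 5 members measured in both organs stayed higher in bladder in both genotypes.

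**Figure D1:**
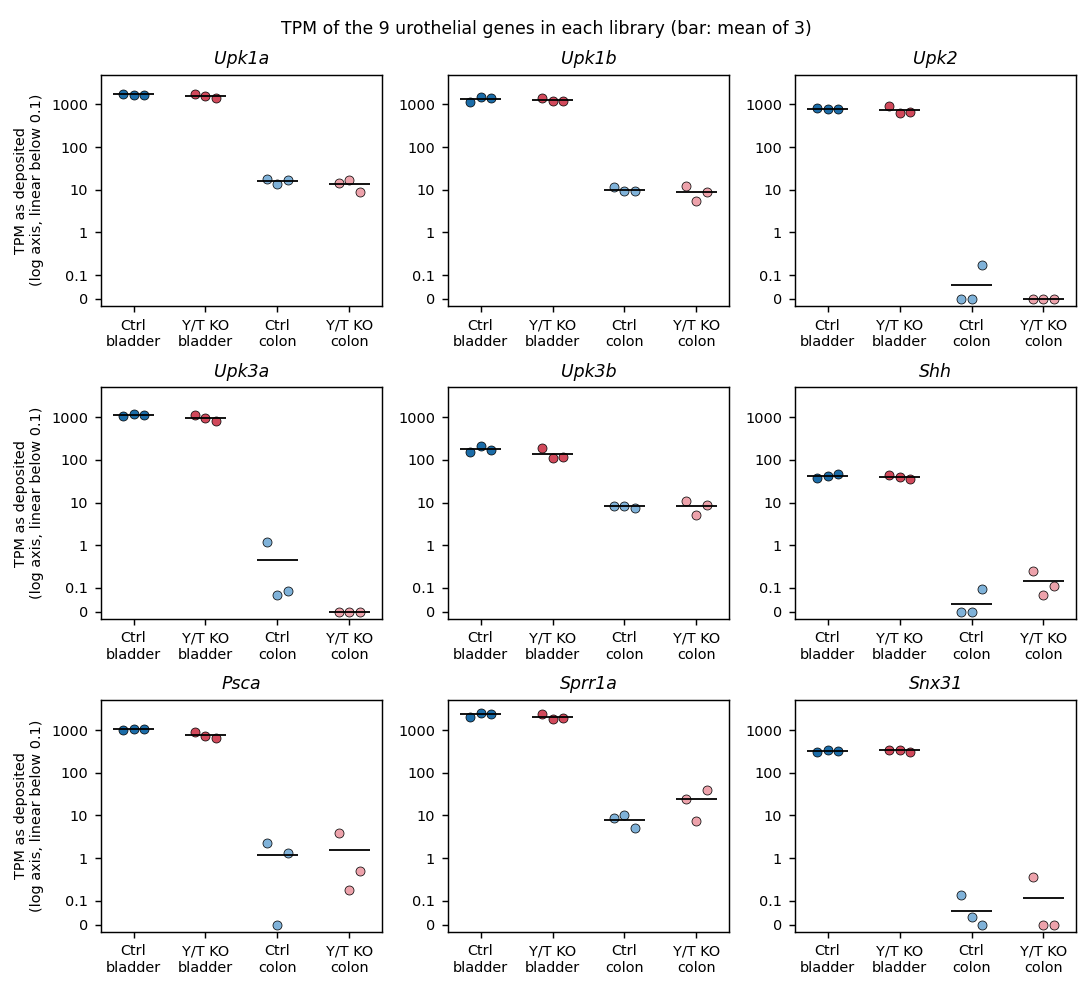
Deposited TPM (log axis, linear below 0.1) of the 9 genes, 1 panel per gene and 1 point per library, with a bar at the mean of 3 libraries for each organ and genotype. Bladder points lie far above colon points in every panel, and *Upk2*, *Upk3a*, *Shh*, and *Snx31* lie at or near 0 in most colons while *Upk1a*, *Upk1b*, and *Upk3b* do not.

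Within Ctrl bladder the order of levels was *Sprr1a*, *Upk1a*, *Upk1b*, *Upk3a*, *Psca*, *Upk2*, *Snx31*, *Upk3b*, and *Shh*. The ranges of neighbors over the libraries were apart, except those of *Upk1b* with *Upk3a* and *Upk3a* with *Psca*, which overlapped. In Y/T KO bladder the order was the same, and the neighbors whose ranges overlapped were *Upk1a* with *Upk1b*, *Upk3a* with *Psca*, and *Psca* with *Upk2*. Within each single bladder of either genotype this order held. In Ctrl colon *Upk1a* came first, above *Upk1b* and then *Upk3b* in every library. In Y/T KO colon *Sprr1a*, *Upk1a*, *Upk1b*, and *Upk3b* had overlapping ranges, from 5.11 to 39.6 TPM.

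The second question was whether these genes differed between the genotypes in the bladder. Of the 9 genes, 0 were called at an adjusted p under 0.05, beside 0.302% of the 18237 genes tested, and 1 (*Psca*) had an unadjusted p under 0.05, beside 14.8%. *Psca* was lower in 3 of 3 Y/T KO bladders, at 763 ± 114 against 1046 ± 29 rescaled TPM (SD, n = 3 and 3; log2 difference -0.46, SE 0.12, limma adjusted p = 0.172). *Upk3a* was also lower in 3 of 3 after rescaling, at 969 ± 130 against 1135 ± 48 rescaled TPM (-0.24, SE 0.11, adjusted p = 0.378), whereas the deposited values of the genotypes overlapped. A lower level without overlap was seen for 11.4% of all genes tested. For groups of 3 the smallest p that exact two-sided permutation allows is 0.10.

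*Upk3b* had the largest uncertainty, at 138 ± 38 in Y/T KO against 180 ± 27 rescaled TPM in Ctrl (SD, n = 3 and 3; log2 difference -0.41, SE 0.20, adjusted p = 0.403). The log2 differences of *Upk1a*, *Upk1b*, and *Upk2* were -0.12 (SE 0.11, adjusted p = 0.638), -0.06 (SE 0.10, adjusted p = 0.816), and -0.14 (SE 0.13, adjusted p = 0.649). Those of *Shh*, *Sprr1a*, and *Snx31* were -0.10 (SE 0.11, adjusted p = 0.711), -0.18 (SE 0.11, adjusted p = 0.517), and 0.05 (SE 0.09, adjusted p = 0.814). None of these passed the test, and their 95% intervals give the changes that the data leave possible. On the fold scale these reached from 0.765 to 1.10 for *Upk1a*, 0.811 to 1.13 for *Upk1b*, 0.738 to 1.12 for *Upk2*, 0.706 to 1.02 for *Upk3a*, and 0.537 to 1.06 for *Upk3b*. The bounds were 0.778 and 1.12 for *Shh*, 0.733 and 1.07 for *Sprr1a*, 0.899 and 1.20 for *Snx31*, and 0.598 and 0.878 for *Psca*. The median log2 difference of the 9 genes was -0.14, beside 0.00 over all genes tested, with 8 of 9 below 0 beside 49.8%. In bulk RNA of the bladder, fewer urothelial cells and less RNA per urothelial cell cannot be told apart.

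**Figure D2:**
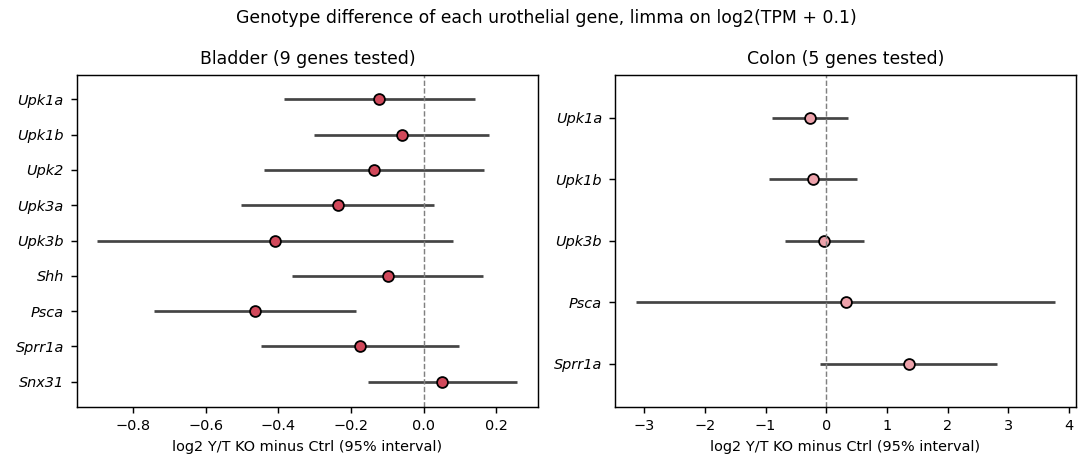
Log2 difference, Y/T KO minus Ctrl, with its 95% interval from limma for each gene tested, 9 in the bladder at left and 5 in the colon at right, on axes of different range. In the bladder 8 of 9 estimates lie below 0 and the interval of *Psca* alone excludes 0, and in the colon every interval includes 0.

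The 3 Y/T KO bladders were not alike. Bladder 782 was the highest of the 3 in deposited TPM for 9 of 9 members, and 780 was the lowest for 6 and 783 for 3. Among Ctrl bladders, 784 was the lowest for 7 of 9. Bladders 783, 780, and 784 were also those with prostate transcripts, at 74.3, 350.7, and 1009 summed TPM of 11 accessory gland and prostate genes, against 0.979 to 2.43 in 785, 788, and 782. Among the 3 libraries without these transcripts, Y/T KO bladder 782 had 882 rescaled TPM of *Psca* against 1074 and 1046 in Ctrl bladders 785 and 788. *Upk3a* (1094 against 1188 and 1121) and *Shh* (41.9 against 43.0 and 46.4) were likewise below both Ctrl values there. *Upk1a* (1715 against 1706 and 1582) and *Upk2* (872 against 803 and 753) were above both, and *Upk1b*, *Upk3b*, *Sprr1a*, and *Snx31* lay between the Ctrl values. With the other 9 libraries in one fit, *Upk1a* and *Upk2* had differences of 0.07 and 0.17 in place of -0.12 and -0.14, *Psca* had -0.26 with an SE of 2.13, in a fit that estimates the spread over bladders and colons together, and no member was called.

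Markers of other cells moved beside these values. The 12 pan-epithelial genes summed to 972 to 1067 TPM in Ctrl bladders and 966 to 1140 TPM in Y/T KO bladders, with a median log2 difference of 0.04. Smooth muscle genes were lower for 12 of 12 (median -0.44, 0 called), from 39210 to 52460 summed TPM in Ctrl and from 20410 to 37310 in Y/T KO, with 782 the highest of the Y/T KO bladders. Mesothelial genes were lower for 8 of 8 (median -0.90, 0 called), and fibroblast genes for 3 of 8 (median 0.11, 0 called). Leukocyte genes were lower for 6 of 7 (median -0.50), proliferation genes for 6 of 6 (median -0.35), and mitochondrially encoded genes for 6 of 12 (median 0.03), with 0 called in each. Of the colon epithelium list 6 genes were tested in bladder (median 0.80), and of the accessory gland and prostate list 3 (median 1.26), again with 0 called. The part of these cell types in the urothelial values was not tested.

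**Figure D3:**
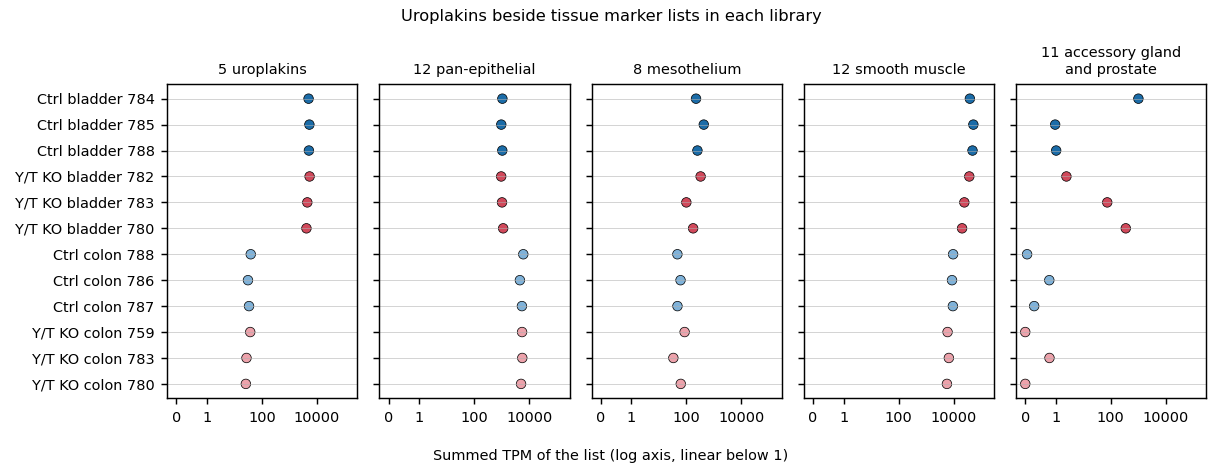
Summed TPM (log axis, linear below 1) of the 5 uroplakins and of 4 marker lists in each of the 12 libraries, 1 row per library. The uroplakin sum lies at 4173 to 5430 TPM in the 6 bladders and at 26.1 to 39.4 TPM in the 6 colons, and the accessory gland and prostate sum exceeds 70 TPM in bladders 784, 783, and 780 alone.

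In the colon the same question could be tested for 5 genes, and 0 of them were called, beside 0.137% of the 17500 genes tested, with 0 at an unadjusted p under 0.05, beside 9.73%. *Sprr1a* had the largest difference, 1.36 on the log2 scale (SE 0.61, 95% interval -0.10 to 2.82, limma adjusted p = 0.545), with overlapping genotypes. It was 2.06 without Y/T KO 783 and 0.84 without Y/T KO 780. *Upk1a*, *Upk1b*, and *Upk3b* had differences of -0.26 (SE 0.27, adjusted p = 0.763), -0.22 (SE 0.31, adjusted p = 0.833), and -0.03 (SE 0.28, adjusted p = 0.981). *Psca* had 0.32 with an SE of 1.45 (adjusted p = 0.956). The direction of 3 of these rested on single colons. That of *Psca* was -1.10 without Ctrl 786 and -0.78 without Y/T KO 759, that of *Upk1b* 0.10 without Y/T KO 783, and that of *Upk3b* 0.27 without Y/T KO 783 and 0.02 without Ctrl 788. Of the 4 genes below the filter, *Upk3a* did not overlap between genotypes. It was listed at 1.18, 0.070, and 0.085 TPM in Ctrl colons and at 0 in all Y/T KO colons. Such a separation was seen for 0 of the 5 tested genes. Of the 17500 genes tested, a set without *Upk3a*, 7.87% were lower and 8.24% higher without overlap. The exact two-sided permutation test gave p = 0.10 for *Upk3a*, the smallest possible. *Shh* gave an exact p of 0.20, and *Upk2* and *Snx31* gave 1. Beside these values, smooth muscle genes were lower for 12 of 12 in Y/T KO colon (median -0.49), mitochondrially encoded genes for 12 of 12 (median -0.75), mesothelial genes for 6 of 8 (median -0.10), and pan-epithelial genes for 3 of 12 (median 0.06), with 0 called, and their part was not tested.

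Whether the genotype difference was unlike in the 2 organs was tested by the interaction term over all 12 libraries for the same 5 genes. It passed the test for 0 of them, beside 0.0552% of 16298 genes. *Sprr1a* came nearest, at -1.51 (bladder minus colon, log2; SE 0.70, 95% interval -3.07 to 0.04, limma adjusted p = 0.406), with -2.21 without Y/T KO colon 783 and -1.0 without Y/T KO colon 780. *Psca* (-0.80, SE 1.74, adjusted p = 0.870), *Upk3b* (-0.36, SE 0.36, adjusted p = 0.701), *Upk1a* (0.17, SE 0.31, adjusted p = 0.850), and *Upk1b* (0.18, SE 0.35, adjusted p = 0.850) had intervals that include 0.

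Other urothelial genes were read from lists that had been written out for this purpose. Uroplakin plaques reach the surface in fusiform vesicles, and 10 genes of their trafficking were examined. In bladder their median log2 difference between genotypes was -0.05, with 0 of 10 called. *Mal*, a membrane protein needed for fusion of uroplakin vesicles at the umbrella cell surface, stood at 235, 319, and 292 TPM in Ctrl bladders, against 255, 293, and 244 TPM in Y/T KO bladders (log2 difference -0.09, SE 0.14, adjusted p = 0.807). *Rab27b*, a GTPase of the same vesicles, had -0.13 (SE 0.14, adjusted p = 0.702), *Rab11a* 0.11 (SE 0.18, adjusted p = 0.817), and the endosomal sorting nexin *Snx17* 0.07 (SE 0.09, adjusted p = 0.747).

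In the colon *Mal* was the only gene of this list, and of all 6 lists, that was called. It stood at 18.2, 16.9, and 19.5 TPM in Ctrl colons 788, 786, and 787, against 5.12, 5.13, and 3.49 TPM in Y/T KO colons 759, 783, and 780. All 3 Y/T KO colons were far below all Ctrl colons, at 4.63 ± 0.90 against 18.1 ± 2.49 rescaled TPM (SD, n = 3 and 3; log2 difference -1.95, SE 0.22, limma adjusted p = 0.0329). The call rested on 5 of the 6 colons. Leaving out Ctrl 788, 786, or 787 or Y/T KO 783 or 780 gave adjusted p-values of 0.104, 0.063, 0.144, 0.103, and 0.107 with differences of -2.07 to -1.78, and leaving out Y/T KO 759 gave 0.031. Without the filter on low values the adjusted p was 0.0716.

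Keratins distinguish the layers of the urothelium, with KRT5 in basal cells and KRT20 in umbrella cells. Of 10 keratins 9 were tested in bladder, 8 were lower in Y/T KO (median log2 difference -0.32), and 0 were called. The most abundant were *Krt18* (-0.13, SE 0.08, adjusted p = 0.477), *Krt15* (-0.32, SE 0.13, adjusted p = 0.327), *Krt8* (-0.28, SE 0.08, adjusted p = 0.207), and *Krt19* (-0.50, SE 0.13, adjusted p = 0.183). *Krt5*, *Krt14*, and *Krt20* were chosen after their values were seen. *Krt5* stood at 423, 586, and 537 TPM in Ctrl bladders, against 289, 285, and 277 TPM in Y/T KO bladders, without overlap (-0.85, SE 0.12, adjusted p = 0.0629). *Krt20* stood at 128, 142, and 162 TPM in Ctrl, against 152, 154, and 131 TPM in Y/T KO (0.02, SE 0.11, adjusted p = 0.941). *Shh* and *Trp63*, also genes of basal cells, overlapped between the genotypes in bladder. The keratin *Krt14* did not overlap and was lower in Y/T KO, at low levels. It stood at 4.23, 9.14, and 8.26 TPM in Ctrl bladders, against 1.76, 0.80, and 2.08 TPM in Y/T KO bladders. The uroplakins, carried by umbrella cells, all had differences below 0 there, and none was called. A difference between the layers was not tested.

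Lower levels without overlap, which 11.4% of all genes tested in bladder had, were found for 6 of the 9 keratins. In colon 10 keratins were tested and 0 were called (median 0.18). Between organs the keratins split, with *Krt5*, *Krt7*, *Krt15*, and *Krt18* called higher in bladder in both genotypes and *Krt8*, *Krt19*, and *Krt20* called higher in colon. *Krt17* was also called higher in colon in both, but it missed the filter in the bladder libraries alone. *Krt13* and *Krt14* were called higher in colon in Y/T KO only.

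Of 9 transcription factors of urothelial differentiation, all were tested in bladder, the median was -0.02, and 0 were called. *Pparg*, a nuclear receptor, stood at 91.9, 96.1, and 95.4 TPM in Ctrl bladders, against 89.0, 114, and 80.0 TPM in Y/T KO bladders (log2 difference -0.02, SE 0.16, adjusted p = 0.972). *Gata3* had -0.05 (SE 0.14, adjusted p = 0.902), *Ehf* 0.31 (SE 0.25, adjusted p = 0.594), and *Rxra*, the partner of PPARG, -0.16 (SE 0.12, adjusted p = 0.565). In colon 7 of the 9 were tested, the median was 0.00, and 0 were called. *Gata3* and *Trp63*, a factor of basal cells, were bladder genes like the uroplakins, at 65.9 to 97.8 and 41.2 to 66.3 TPM in bladders and at most 0.39 and 0.097 TPM in colons.

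**Figure D4:**
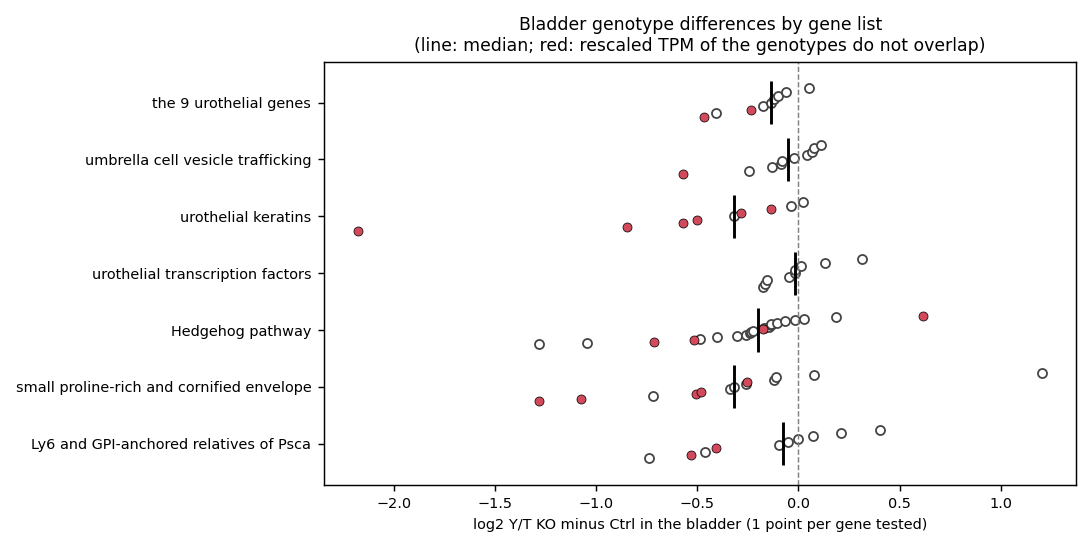
Log2 difference, Y/T KO minus Ctrl, in the bladder for each gene tested, grouped as the 9 urothelial genes and 6 lists, with a line at the median of each group. Red points mark genes whose rescaled TPM did not overlap between genotypes, and 6 of the 9 keratins are among them, all lower in Y/T KO.

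*Shh* was examined together with 23 other genes of the Hedgehog pathway. The organs differed in their ligand. *Ihh*, the ligand of colonic epithelium, stood at 45.5 to 75.1 TPM in the colons and at no more than 0.082 TPM in any bladder, the reverse of *Shh*. Between organs, 15 of the 23 were called higher in bladder and 2 lower in Ctrl, beside 25.3% and 25.1% of all genes, and 16 and 3 in Y/T KO, beside 25.6% and 25.8%. *Ihh*, 1 of the lower calls in each genotype, passed the filter only through the colons, so that it had to differ. *Gli1*, a transcriptional target and effector of the pathway, stood at a mean of 25.6 rescaled TPM in Ctrl bladders and 7.57 rescaled TPM in Ctrl colons (log2 difference between organs 1.46, SE 0.17, adjusted p = 2.63e-05). The median of the Hedgehog list between organs was 0.96 in Ctrl. Fibroblast markers had 1.85 (7 of 8 called higher in bladder) and smooth muscle markers 2.11 (12 of 12). Pan-epithelial markers had -2.19 (11 of 12 called lower). The part of these cell types in the Hedgehog values was not tested.

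Between genotypes, 0 of the 22 Hedgehog genes tested in bladder were called, with 19 lower and a median log2 difference of -0.20. Of the most abundant, the coreceptor *Gas1* had -0.14 (SE 0.13, adjusted p = 0.653), *Foxf1*, a stromal target gene, -0.26 (SE 0.14, adjusted p = 0.440), *Wnt2* -0.02 (SE 0.19, adjusted p = 0.977), and *Bmp4* -1.05 (SE 0.49, adjusted p = 0.384). Chosen after their values were seen, *Hhip*, an antagonist that binds the ligands, stood at 21.1, 19.6, and 22.2 TPM in Ctrl bladders, against 12.4, 13.2, and 12.7 TPM in Y/T KO bladders (-0.71, SE 0.11, adjusted p = 0.0813). *Cdon*, a coreceptor, stood at 24.9, 23.6, and 24.7 TPM in Ctrl, against 42.8, 32.6, and 37.7 TPM in Y/T KO (0.61, SE 0.11, adjusted p = 0.102). Neither passed the test. Of the 22 genes, 3 were lower and 1 higher without overlap, beside 11.4% and 10.6% of all genes tested. *Gli1* had -0.24 (SE 0.18, adjusted p = 0.582) and *Ptch1*, the receptor and a target, -0.24 (SE 0.14, adjusted p = 0.489). In colon 22 of the 23 were tested, 0 were called, and the median was 0.00.

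*Sprr1a* was read beside 23 small proline-rich and cornified envelope genes, 13 of which were tested in bladder. Of these 11 were lower in Y/T KO (median -0.32) and 0 were called. *Ivl*, the envelope precursor involucrin, stood at 405, 461, and 399 TPM in Ctrl bladders, against 268, 319, and 306 TPM in Y/T KO bladders (log2 difference -0.50, SE 0.12, adjusted p = 0.163). *Sprr2a3* had -0.32 (SE 0.15, adjusted p = 0.381), *Sprr2a1* -0.26 (SE 0.15, adjusted p = 0.473), and *Ppl*, the plakin periplakin, -0.25 (SE 0.12, adjusted p = 0.372). The *Sprr2a* copies are near-identical, so reads can have been divided among them. In colon, 11 of the 23 were tested, the median was 0.19, and 0 were called. Unlike *Sprr1a*, *Sprr2a3* was higher in colon, at 571 to 953 TPM against 222 to 377 TPM in bladders (log2 difference between organs, bladder minus colon, -1.14, SE 0.17, adjusted p = 0.000177 in Ctrl).

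*Psca* was read beside 15 Ly6 and GPI-anchored relatives, 10 of which were tested in bladder. Of these 7 were lower in Y/T KO (median -0.07) and 0 were called. *Ly6d*, the most abundant, stood at 1146, 1265, and 1397 TPM in Ctrl bladders, against 1102, 887, and 888 TPM in Y/T KO bladders, without overlap (log2 difference -0.41, SE 0.10, adjusted p = 0.162), and it was a bladder gene like *Psca*, at 5.54 ± 1.05 rescaled TPM in Ctrl colons (SD, n = 3). *Ly6a*, *Ly6e*, and *Ly6c1* had -0.05 (SE 0.26, adjusted p = 0.941), -0.74 (SE 0.50, adjusted p = 0.540), and 0.07 (SE 0.38, adjusted p = 0.945). In colon 9 of the 15 were tested, the median was -0.08, and 0 were called.

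Among the genes whose levels followed the mean log2 level of the 5 uroplakins most closely over the 12 libraries were *Gm13398*, *Prom2*, *Gldc*, and *Fam25c* (Pearson r = 0.998 for each over 12 libraries, given as a description without a test). They were bladder genes too, with *Fam25c* at 375 to 582 TPM and *Prom2*, a membrane protein of epithelial protrusions, at 93.4 to 110 TPM in bladders and neither above 0.11 TPM in a colon. Since the 2 organs form separate clusters, this r mainly restates the difference between organs. Over the 6 bladders alone the closest were *Arrb2*, *Gm17455*, *Gm7390*, *Manbal*, and *Gas6* (r = 0.991 to 0.993). The uroplakins, which make up this mean, followed it unequally over the bladders. *Upk3b*, *Upk3a*, and *Upk2* had r = 0.970, 0.964, and 0.900, and *Upk1a* and *Upk1b* had 0.776 and 0.727. Of the members outside the uroplakins, *Psca* and *Sprr1a* had r = 0.896 and 0.881 over the bladders, *Shh* 0.608, and *Snx31* 0.152. These 6 libraries differ in depth (2.80 to 3.66 gigabases) and in the marker sums described above. The part of either in these r values was not tested.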

How the data were processed

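Tissue, genotype, and mouse of the 12 libraries came from the labels. The authors made stranded mRNA libraries and ran HISAT2 and StringTie on GRCm38, per the labels, without versions in the sources used here. The deposited TPM values are length-corrected shares of a library's transcripts that sum to 1000000. The deposited FPKM values were an alternative unit, and the deposited coverage was used with FPKM only to read the depth. The authors' read counts for DESeq2 were not used here. TPM rows were summed by gene ID and divided by median-of-ratios size factors (0.960 to 1.10 within an organ), keeping genes that reached 0.5 TPM in 3 or more libraries of a fit. Log2(rescaled TPM + 0.1) was fitted with limma 3.58.1 in R 4.3.3 (eBayes with trend and robust), with Benjamini-Hochberg adjustment over all genes and calls under 0.05. Genotypes were compared in 6 libraries per organ, and organs and the interaction in 12. P-values are two-sided. Between genotypes within an organ they measure the spread between mice. Between organs and in the interaction they measure the spread between libraries within groups, pooled over both organs. There the 3 mice that gave both organs entered as independent libraries. Single-library values are deposited TPM. The counting error of a TPM value was not estimated.

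The 9 genes, the 6 gene lists, and the 9 marker lists were chosen with earlier results of these data known. Named were the members, called genes, the 4 genes of each list most abundant in bladder, and the 5 genes most like the uroplakins, of which 1 is not reported here. Other names were chosen after their values were seen. Alternatives were pseudocounts of 0.5 and 1 TPM, no filter or a mean TPM of at least 1, TPM or FPKM as deposited, limma without trend and robust, all 12 libraries in one fit, the mouse as a block, and each library left out. The fit without bladders holding prostate transcripts (*Pbsn* above 10 TPM) was added after the data were seen. Promoters came from RefSeq on GRCm38.p6, clipped where they reached into the annotated gene. Transcripts were compared with blastn 2.17.0. In simulated libraries, 200 genes changed by a log2 of 1 were called for 37% in bladder (18237 genes) and 7% in colon (17500 genes), and by a log2 of 2 for 85% and 82.5%. The changed genes were drawn from those with a mean log2 level above 1, which *Psca* did not reach in colon. These rates are averages over genes of differing spread and are not rates for the members.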

Additional observations from a re-analysis of the deposited data

Results flagged for a closer look

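*Mal* (ENSMUSG00000027375, chromosome 2 of GRCm38 from 127633226 to 127656695, minus strand) had a genotype difference that was itself different between organs. It was lower in 3 of 3 Y/T KO colons and overlapped in the bladders, and the interaction term was 1.89 on the log2 scale (bladder minus colon, SE 0.25, limma adjusted p = 0.0239), beside 0.0552% of 16298 genes that passed. Over 21 alternatives the interaction ran from 1.68 to 1.99 and its adjusted p from 0.0117 to 0.280, with 14 under 0.05. The adjusted p was 0.280 without the 3 bladders with prostate transcripts, 0.0546 without the trend and robust options, and 0.0186 with the mouse as a block. Leaving out Ctrl colon 788 or 787, Ctrl bladder 784 or 788, or Y/T KO bladder 783 gave 0.0821, 0.0635, 0.0517, 0.0639, and 0.0823. The cause was not tested.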

How the results depend on the processing

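No member moved between called and not called under any alternative that left no group with a single library. Of the members, 0 were called between genotypes in either organ and in the interaction. The tissue calls held for the 5 members measured in both organs, and those of the others were fixed by the filter. The lowest adjusted p of a member between genotypes was 0.0769 (*Psca* in bladder). In bladder the count of genes called, 55, was 19 without the bladders holding prostate transcripts and 19 to 51 with single libraries left out (20, 19, 19, and 22 without Ctrl 785, Ctrl 788, Y/T KO 783, and Y/T KO 780). In colon the count of 24 became 6 without the filter, 75 with all 12 libraries in one fit, and 6 to 69 with single libraries left out (69 without Y/T KO 759). The interaction count of 9 became 6 to 28 (28 without Y/T KO colon 759, 15 without Y/T KO bladder 782). The cause was not tested. Differences of members that changed sign were all uncalled. In bladder these were *Upk1a* (0.07) and *Upk2* (0.17) without the bladders holding prostate transcripts and *Upk1b*, -0.14 to 0.01 with single libraries left out. In colon they were *Upk3b* with FPKM (0.0) and, with single libraries left out, *Upk3b* (-0.26 to 0.27), *Upk1b* (-0.51 to 0.10), and *Psca* (-1.10 to 1.21). In the interaction they were *Upk3b* (0.0) without the bladders holding prostate transcripts and, with single libraries left out, *Upk1a* (-0.10 to 0.36), *Upk1b* (-0.13 to 0.48), and *Psca* (-1.71 to 0.67).

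The mouse as a block, possible only between organs because 3 of 9 mice gave both, called 10028 genes in Ctrl, 10314 in Y/T KO, and 10 in the interaction, against 9962, 10152, and 9, and changed the call of no member. Deviations of the 3 same-mouse pairs correlated at 0.0438 on average, and those of 15 pairs of different mice at -0.00886 (consensus correlation 0.0566). With 3 libraries per group, a log2 change of 1 was called in few simulated colon genes, so smaller changes of the members in colon may go undetected.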

Other observations

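*Upk3bl*, a uroplakin-like gene that lies 8004 bases downstream of *Upk3b* on chromosome 5 (ENSMUSG00000006143, GRCm38 from 136054492 to 136064326) and was chosen after its values were seen, had a much lower bladder level. It stood at 5.76, 9.63, and 8.15 TPM in Ctrl bladders, against 4.84, 5.52, and 3.81 TPM in Y/T KO bladders (log2 difference -0.70, SE 0.25, limma adjusted p = 0.273), with no more than 0.30 TPM in any colon. Unlike *Upk3b*, it was therefore near 0 in the colons, although the genes are neighbors.

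Among the keratins and cornified envelope genes that separated the genotypes in colon were *Tgm3*, *Krt17*, and *Sbsn*, and they too were chosen after their values were seen. The others were *Krt13* and *Tgm1*, higher in Y/T KO, and *Dsp*, lower. *Tgm3*, a transglutaminase that cross-links envelope proteins, was a colon gene, unlike *Sprr1a*, at 324 to 1191 TPM in colons and no more than 2.04 TPM in bladders. It stood at 1029, 1191, and 782 TPM in Ctrl colons, against 612, 559, and 324 TPM in Y/T KO colons (95% interval of the fold 0.333 to 0.749, limma adjusted p = 0.323). *Krt17*, a keratin of basal and stressed epithelium, stood at 14.4, 6.88, and 9.68 TPM in Ctrl colons, against 3.65, 1.22, and 0.23 TPM in Y/T KO colons (log2 difference -3.05, SE 0.85, adjusted p = 0.386). *Sbsn*, the envelope protein suprabasin, was higher in bladder, as *Sprr1a* was, and stood at 1.44, 1.22, and 1.65 TPM in Ctrl colons, against 3.66, 2.33, and 5.67 TPM in Y/T KO colons (1.33, SE 0.37, adjusted p = 0.368). None of these passed the test over all genes, and a separation of the genotypes was seen for 7.87% (lower) and 8.24% (higher) of the genes tested in colon.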
